A study of Mus musculus with 12 samples.

Results

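Acinar cells make up most of the pancreas around the islets of Langerhans, and islets freed with collagenase can carry some of their RNA along. A list of 35 acinar genes was followed here in islet RNA: digestive enzymes, proteins of the zymogen granule, transcription factors and a few proteins of the endoplasmic reticulum and membrane. A gene was taken as measured when the array annotation gave a probe set to it alone. This held for 31 of the 35 genes, out of 19938 genes on the array that could be measured in this way, and each of the 31 had 1 such probe set. They comprised 18 enzymes, 5 granule proteins, 5 transcription factors and 3 proteins of the membrane or the endoplasmic reticulum. Prss1, a trypsinogen, was represented by 2 probe sets only, both of them shared with Gm10334, Gm5771 and Prss3. Amy2b, a pancreatic amylase, was represented by 6 probe sets that it shares with Amy2a2 and Amy2a5. Klk1, a kallikrein, and Pnlip, the pancreatic triglyceride lipase, were named for no probe set.

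RNA of pancreatic islets of adult mice on the 129Sv background was hybridised to 12 Affymetrix MoGene 1.0 ST arrays, 3 in each of 4 groups. The mice were Prlr+/+, with an intact prolactin receptor, or Prlr-/-, lacking it in all tissues, and were either non-pregnant (NP) or 9.5 days pregnant (P9.5). Pregnant Prlr-/- mice had been given a progesterone pellet to allow implantation and the other groups had not. Genotype and pellet therefore cannot be told apart at P9.5. Nor can pregnancy and pellet be told apart in the change of Prlr-/- islets with pregnancy. The same limit holds for the difference between the genotypes in that change. The labels call the 3 arrays of a group biological replicates, without saying how many animals each one held. Values are log2 signals, given in steps of 0.1, for 35511 probe sets. The probe annotation at hand did not carry the name Prlr, and the genotype labels were not checked here against the targeted gene. Xist, the RNA of the inactive X chromosome, was 3.8 on Prlr+/+ P9.5 replicate 2 and 10.0 to 10.7 on the others, while the Y-linked gene Kdm5d was 4.1 to 4.6 throughout, and the main counts and medians that rest on that array are also given without it.

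Acinar cells synthesise the enzymes of digestion as inactive precursors, pack them into zymogen granules and release them on hormonal and nervous stimulation. The enzyme genes are switched on together by the PTF1 complex, in which Ptf1a pairs with an E-protein and binds Rbpjl, and by Nr5a2, an orphan nuclear receptor. Bhlha15, also called Mist1, is a basic helix-loop-helix factor of secretory cells that governs granule maturation and apical secretion. Both Ptf1a and Bhlha15 belong to the class of factors that bind E-boxes, CANNTG.

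For 25 of the 31 genes a promoter window of 250 bases before to 50 bases after the transcription start was at hand (RefSeq, GRCm38.p6). Windows are shown for Bhlha15 and Tmed6, whose signals were higher at P9.5, and for Cel and Rbpjl, an enzyme and its regulator, whose signals were lower there in Prlr-/- islets. All are 5′ to 3′ on the strand of the gene, with every CACCTG or its reverse complement CAGGTG in capitals. The windows lie at chr5:144190036-144190335, plus strand (Bhlha15), chr8:107065595-107065894, minus strand (Tmed6), chr2:28563354-28563653, minus strand (Cel) and chr2:164402944-164403243, plus strand (Rbpjl).
Bhlha15: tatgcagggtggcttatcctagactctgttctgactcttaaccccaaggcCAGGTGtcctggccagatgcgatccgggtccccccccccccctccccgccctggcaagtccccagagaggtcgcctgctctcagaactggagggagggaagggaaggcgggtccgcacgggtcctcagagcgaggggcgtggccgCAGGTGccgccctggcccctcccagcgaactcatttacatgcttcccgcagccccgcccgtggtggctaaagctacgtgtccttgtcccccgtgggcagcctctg
Tmed6: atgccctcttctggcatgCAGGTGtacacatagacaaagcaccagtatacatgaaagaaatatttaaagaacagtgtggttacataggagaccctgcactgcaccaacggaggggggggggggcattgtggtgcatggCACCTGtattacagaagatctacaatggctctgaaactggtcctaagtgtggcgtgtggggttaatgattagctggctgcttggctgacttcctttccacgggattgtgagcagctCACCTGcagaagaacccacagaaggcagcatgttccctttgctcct
Cel: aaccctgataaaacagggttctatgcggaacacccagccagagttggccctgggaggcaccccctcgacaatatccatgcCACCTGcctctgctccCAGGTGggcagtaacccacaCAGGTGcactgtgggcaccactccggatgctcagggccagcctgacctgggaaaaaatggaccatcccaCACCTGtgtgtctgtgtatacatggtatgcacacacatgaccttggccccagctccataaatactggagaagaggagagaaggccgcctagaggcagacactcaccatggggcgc
Rbpjl: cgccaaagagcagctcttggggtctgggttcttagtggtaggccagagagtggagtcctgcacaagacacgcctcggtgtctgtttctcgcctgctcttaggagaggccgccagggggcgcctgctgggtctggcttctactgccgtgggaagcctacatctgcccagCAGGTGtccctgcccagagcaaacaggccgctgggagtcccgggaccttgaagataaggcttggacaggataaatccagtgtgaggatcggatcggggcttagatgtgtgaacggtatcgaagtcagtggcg

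Genes with signals that moved in opposite directions held the same E-box form. CACCTG, on either strand, occurred 2 times in the Bhlha15 window, 3 times in Tmed6, 4 times in Cel and 1 time in Rbpjl. Of the 25 members with a window, 16 (64.0%) held CACCTG, against 20.2% of all 32851 promoter windows. This form was picked out after several E-box forms had been searched. CAGCTG was found in 6 members (24.0%, against 16.3% of all windows), and any CANNTG, which includes both forms, in 22 (88.0%, against 72.3%). TGGGAA, a core recognised by RBPJ-type factors, was found in 14 members (56.0%, against 25.6%), among them Cel and Rbpjl. CAAGGTCA, a core of NR5A2 sites, was found in Cel alone (4.0%, against 1.6%). TTCNNNGAA, the core bound by STAT5, which the prolactin receptor activates, was found in Prss2 and Rnase1 (8.0%, against 8.3%), and these letters were not in the Bhlha15 and Tmed6 windows. A member with more than 1 window was counted once, as holding a motif if any of its windows did. The shares of all windows count each window singly, which favours members with more than 1 window. These matches describe the letters of the windows, their shares were not tested and no binding was measured.

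The acinar genes were far from uniform between islet samples of the same group. Over the 18 enzymes the median log2 signal of an array was 10.60, 11.30 and 10.70 in Prlr+/+ NP, 12.15, 10.85 and 11.45 in Prlr-/- NP, 9.90, 9.45 and 10.95 in Prlr+/+ P9.5, and 10.85, 9.70 and 8.95 in Prlr-/- P9.5. The 2 ends of this range, Prlr-/- NP replicate 1 and Prlr-/- P9.5 replicate 3, lay 3.2 log2 units or 9.19-fold apart. Within the Prlr-/- P9.5 group alone the range was 1.9, which is 3.73-fold, and it was 1.5 in Prlr+/+ P9.5, 1.3 in Prlr-/- NP and 0.7 in Prlr+/+ NP. As group means ± SD (n = 3), the enzyme median was 10.87 ± 0.38 in Prlr+/+ NP, 11.48 ± 0.65 in Prlr-/- NP, 10.10 ± 0.77 in Prlr+/+ P9.5 and 9.83 ± 0.96 in Prlr-/- P9.5. The 4 groups overlapped, and the lowest Prlr-/- NP array and the highest Prlr-/- P9.5 array had the same value, 10.85. In whole-islet RNA, fewer acinar cells and less enzyme RNA in each acinar cell cannot be told apart.

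The spread between replicates was larger for the enzymes and granule proteins than for the acinar factors. The pooled SD within groups had a median of 0.65 over the enzymes and 0.76 over the granule proteins. It was 0.19 over the transcription factors and 0.16 over all 35511 probe sets, of which 90% stayed under 0.36. The factors Ptf1a, Nr5a2, Rbpjl and Gata4 were dim, with mean signals of 5.1, 5.3, 6.2 and 6.23. The granule protein Serpini2, also dim with a mean of 5.69, had an SD of 0.79. Whether low signal held down the spread of the factors was not tested. Of the 18 enzymes, 17 had their highest signal on Prlr-/- NP replicate 1 and 17 their lowest on Prlr-/- P9.5 replicate 3, ties included. The exceptions were Prss3, highest on Prlr+/+ NP replicate 2, and Try4, lowest on Prlr-/- P9.5 replicate 2. Of the 5 granule proteins, 4 shared both of these arrays. A first principal component took 92.6% of the variance of the enzymes over the 12 arrays.

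**Figure D1:**
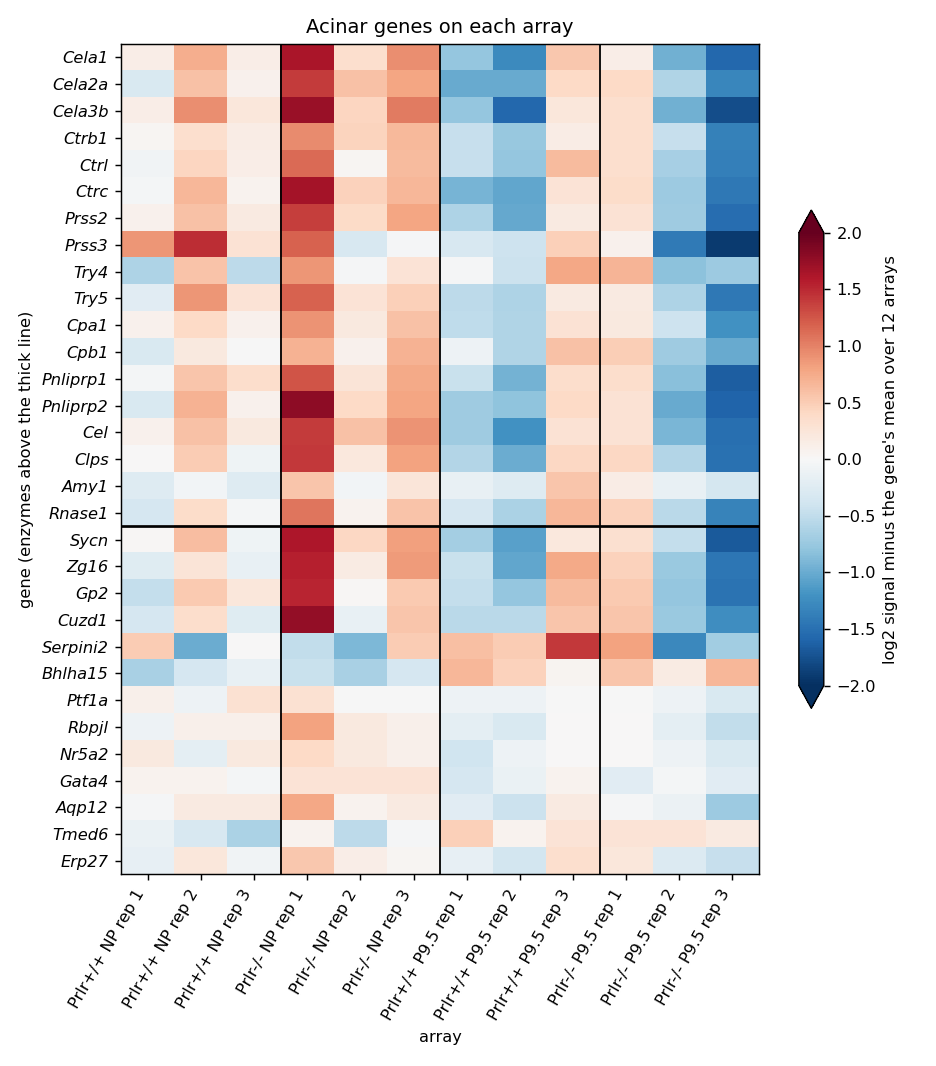
Signal of the 31 acinar genes (rows, enzymes above the thick line) on the 12 arrays (columns, 3 per group), as log2 signal minus the mean of the gene over all arrays. Most enzyme and granule rows share one pattern over the columns, with Prlr-/- NP replicate 1 high and Prlr-/- P9.5 replicate 3 low, while the Bhlha15 and Tmed6 rows divide at the step from NP to P9.5.

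Cela1, an elastase, is an example of an enzyme that followed the others. Its log2 signal was 10.6, 11.2 and 10.6 in Prlr+/+ NP, 12.1, 10.8 and 11.4 in Prlr-/- NP, 9.7, 9.2 and 11.0 in Prlr+/+ P9.5 and 10.6, 9.5 and 8.9 in Prlr-/- P9.5. Its distance to the median of the other 17 enzymes on the same array had an SD of 0.14 over the 12 arrays, where the signal itself had an SD of 0.96. The offset between genes has no meaning on an array of this kind, and what counts is how far it changed from array to array. The chymotrypsin-type protease gene Ctrc and the trypsinogen gene Prss2 kept the same distance with SDs of 0.14 and 0.13, and so did Cel, the bile salt-activated lipase, with 0.13. For the lipase-related genes Pnliprp2 and Pnliprp1 the SD of the distance was 0.18 and 0.19, and for Clps, the colipase, 0.23. Sycn, Zg16 and Gp2, proteins of the zymogen granule or its membrane, kept within SDs of 0.16, 0.25 and 0.27 of the enzyme median, and Cuzd1, another granule protein, within 0.35. The elastase genes Cela2a and Cela3b, with SDs of 0.26 and 0.24, and Ctrl, a chymotrypsin-like protease, with 0.27, did likewise.

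Other enzymes kept to the shared pattern in a flatter form. Ctrb1, the chymotrypsinogen, with an SD of the distance of 0.33, Cpa1, a carboxypeptidase, with 0.37, Try5, a trypsin, with 0.30, and Rnase1, a ribonuclease, with 0.37, had smaller ranges than Cela1. The ranges over the 12 arrays were 2.3 for Ctrb1, 2.1 for Cpa1, 2.6 for Try5 and 2.4 for Rnase1, against 3.2 for Cela1. Their highest signals lay between 12.2 and 13.4. Cpb1, a carboxypeptidase, ranged over 1.7 and its distance had an SD of 0.46. Amy1, the amylase of salivary gland and liver, was the flattest enzyme, with a range of 0.9, from 7.2 to 8.1. The 6 probe sets shared by Amy2b, Amy2a2 and Amy2a5 were also flat, between 12.3 and 13.5 on every array.

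The trypsin genes Try4, Try5, Prss3, Prss1 and Prss2 lie in one cluster on the RefSeq map and are close copies of one another, so that their probe sets may pick up each other's RNA, which was not tested. Even so they did not move alike. Prss3 gave 8.7, 9.3 and 8.1 in Prlr+/+ NP, 9.0, 7.5 and 7.8 in Prlr-/- NP, 7.5, 7.4 and 8.3 in Prlr+/+ P9.5 and 7.9, 6.4 and 5.9 in Prlr-/- P9.5. Relative to the other enzymes it was lower in both Prlr-/- groups, with a mean distance of -3.43 in Prlr-/- NP and -3.20 in Prlr-/- P9.5 against -2.20 and -2.40 in the Prlr+/+ groups. In the direct comparisons of genotype Prss3 was not called, at a log2 fold change of -0.60 in NP (SE 0.52, adjusted p = 0.69) and -1.0 at P9.5 (SE 0.52, adjusted p = 0.98). With the enzyme median as a covariate it was -1.21 (adjusted p = 0.20) and -0.81 (adjusted p = 0.49). Try4 gave 8.8, 10.0 and 8.9 in Prlr+/+ NP, 10.3, 9.4 and 9.7 in Prlr-/- NP, 9.4, 9.0 and 10.2 in Prlr+/+ P9.5 and 10.1, 8.6 and 8.7 in Prlr-/- P9.5. Its mean distance to the other enzymes rose from -1.67 to -0.60 with pregnancy in Prlr+/+ and from -1.73 to -0.80 in Prlr-/-. The 2 probe sets that Prss1 shares with Prss3 ranged from 8.7 to 11.0 and from 7.4 to 9.7. In NP the first was 10.1, 10.7 and 10.1 in Prlr+/+ and 11.0, 9.9 and 10.4 in Prlr-/-. The second was 9.0, 9.7 and 8.9 in Prlr+/+ and 9.7, 8.5 and 9.0 in Prlr-/-. The lower Prss3 distance in Prlr-/- thus rests on 1 probe set, and the distance of the shared ones was not computed.

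Loss of the receptor in non-pregnant islets changed no acinar gene past the test. A change was called at a fold change of at least 1.5 and an adjusted p under 0.05 in limma. Of the 31 genes 0 were called, in a comparison in which 0.0929% of all probe sets were higher and 0.00845% lower in Prlr-/-. At an unadjusted p under 0.05 there were also 0. Their median log2 fold change was 0.50, beside 0.00 over all probe sets, and 27 of the 31 had a value above 0. Ctrb1 and Gata4, a zinc finger factor of foregut and pancreas, were the only members whose arrays did not overlap, both higher in Prlr-/-, a state shown by 6.47% of all probe sets. Ctrb1 was 12.5, 12.8 and 12.6 in Prlr+/+ NP and 13.4, 12.9 and 13.1 in Prlr-/- NP. Gata4 was 6.3, 6.3 and 6.2 in Prlr+/+ NP and 6.5 on all 3 Prlr-/- NP arrays, a difference of 0.23 (SE 0.11, adjusted p = 0.41).

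At P9.5 receptor loss again changed 0 of the 31 genes, with 0.0253% of all probe sets called higher and 0.206% lower in Prlr-/-. The median over the 31 was -0.17, beside 0.00 over all probe sets, and 28 had a value below 0. The arrays of both genotypes overlapped for all 31 genes, while over all probe sets 3.16% had the Prlr-/- arrays above and 2.91% below the others without overlap. Serpini2, a serpin of the pancreas also known as pancpin, was the only member with an unadjusted p under 0.05 in limma, at a log2 fold change of -1.23 (SE 0.54, adjusted p = 0.89). Its signal was 6.3, 6.2 and 7.1 in Prlr+/+ P9.5 and 6.5, 4.4 and 5.0 in Prlr-/- P9.5, and 6.2, 4.7 and 5.7 in Prlr+/+ NP and 5.2, 4.8 and 6.2 in Prlr-/- NP. Without the low-Xist array 0 of the 31 genes were called, the enzyme median was -0.52 in place of -0.25 and Serpini2 was at -1.4 (adjusted p = 0.87). Serpini2 did not keep to the enzymes, since the SD of its distance to their median, 1.19, was above the SD of its own signal, 0.85.

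With pregnancy, 2 acinar genes rose in Prlr+/+ islets and 0 fell. Bhlha15 rose by 0.77 on the log2 scale, 1.7-fold (SE 0.18, adjusted p = 0.0125), and Tmed6, a member of the p24 family of cargo receptors between endoplasmic reticulum and Golgi, by 0.63, 1.55-fold (SE 0.17, adjusted p = 0.0216). Over all probe sets 5.73% were called higher and 4.21% lower in this comparison. A count of 2 of 31 is near the share called higher. The median over the 31 acinar genes was -0.30, beside -0.07 over all probe sets. For the enzymes the median was -0.58, with 15 of 18 below 0, and an unadjusted p under 0.05 was reached by 0 of them. Cela3b (-1.13, SE 0.55, adjusted p = 0.16), Prss3 (-0.97), Cel (-0.83, SE 0.44, adjusted p = 0.20) and Cela1 (-0.83) had the lowest values among the enzymes. With 1 array left out the enzyme median ranged from -0.93, without Prlr+/+ P9.5 replicate 3, to -0.33, without the low-Xist array. Without the low-Xist array 2 of the 31 genes rose and 0 fell.

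In Prlr-/- islets 15 of the 31 genes fell with pregnancy and 1 rose, where 7.09% of all probe sets fell and 7.44% rose. Of the 15, 12 were enzymes. The elastases Cela3b, Cela1 and Cela2a had log2 fold changes of -1.87 (SE 0.55, adjusted p = 0.022), -1.77 (SE 0.50, adjusted p = 0.0194) and -1.43 (SE 0.46, adjusted p = 0.0313), which are decreases of 3.65-fold, 3.4-fold and 2.7-fold. The lipid-digesting genes Pnliprp2, Cel, Pnliprp1 and Clps changed by -1.77, -1.67, -1.47 and -1.37 on the log2 scale. The proteases Ctrc, Prss2, Try5 and Ctrb1 changed by -1.53, -1.5, -1.27 and -1.17, and the carboxypeptidase Cpa1 by -1.03. The remaining calls were Sycn (-1.57, SE 0.48, adjusted p = 0.0275), Rbpjl (-0.60, SE 0.18, adjusted p = 0.0259) and Aqp12, an aquaporin of acinar cells (-0.63, SE 0.22, adjusted p = 0.0482).

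A further group of acinar genes had similar values in Prlr-/- without passing the test. These were Zg16 (-1.43, adjusted p = 0.0531), Prss3 (-1.37, adjusted p = 0.0626), Gp2 (-1.27), Cuzd1 (-1.20), Ctrl (-1.17, adjusted p = 0.0603), Rnase1 (-1.03) and Cpb1 (-0.90, adjusted p = 0.0839). In all, 24 of the 31 had an unadjusted p under 0.05 and a value below 0, as did 8798 of all 35511 probe sets. Try4 (-0.67) and Amy1 (-0.37) were above these, and Serpini2 was at -0.10 (SE 0.54). Of the 31 genes 14 had all Prlr-/- P9.5 arrays below all Prlr-/- NP arrays, as 22.4% of all probe sets had. The median over the 31 was -1.17, beside -0.07 over all probe sets.

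**Figure D2:**
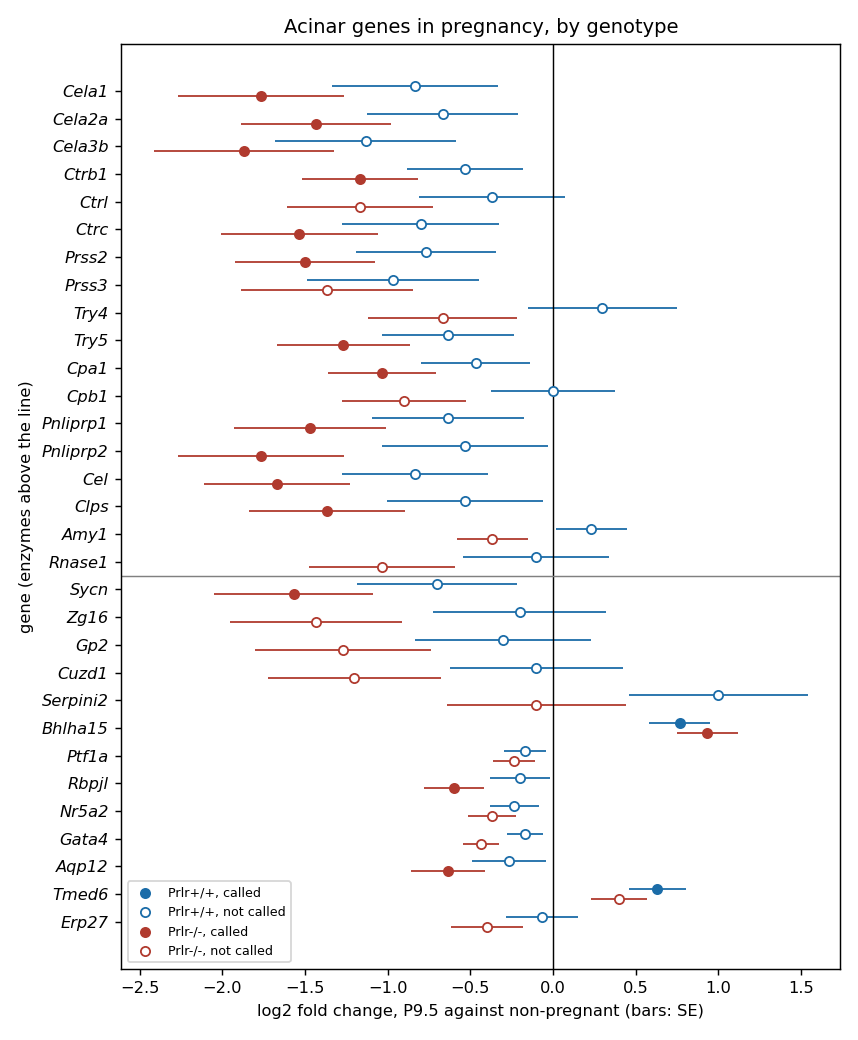
Log2 fold change of each of the 31 acinar genes between P9.5 and NP (horizontal axis, bars are SE), in Prlr+/+ (blue) and Prlr-/- (red), with filled points for called genes. The red points of the enzymes and granule proteins lie left of the blue ones, while Bhlha15 and Tmed6 lie right of 0 in both genotypes.

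The calls of a fall in Prlr-/- depended on single arrays, whereas the median of the enzymes stayed below 0 with any 1 array left out. Cela3b, with the lowest value, was 12.2, 10.9 and 11.5 in Prlr-/- NP and 10.8, 9.5 and 8.7 in Prlr-/- P9.5. The highest Prlr-/- P9.5 array was thus 0.1 below the lowest Prlr-/- NP array. With replicate 1 of Prlr-/- NP left out, the number of acinar genes that fell was 0 in place of 15, and it was also 0 when replicate 3 of Prlr-/- P9.5 was left out. It was 7 without replicate 3 of Prlr-/- NP and 6 without replicate 2 of Prlr-/- P9.5. Leaving out Prlr-/- P9.5 replicate 1, the array of its group with the highest enzyme signal, gave 22. The median log2 fold change of the enzymes in Prlr-/- was -1.37 with all arrays, -1.05 with replicate 1 of Prlr-/- NP left out and -0.93 with replicate 3 of Prlr-/- P9.5 left out.

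**Figure D3:**
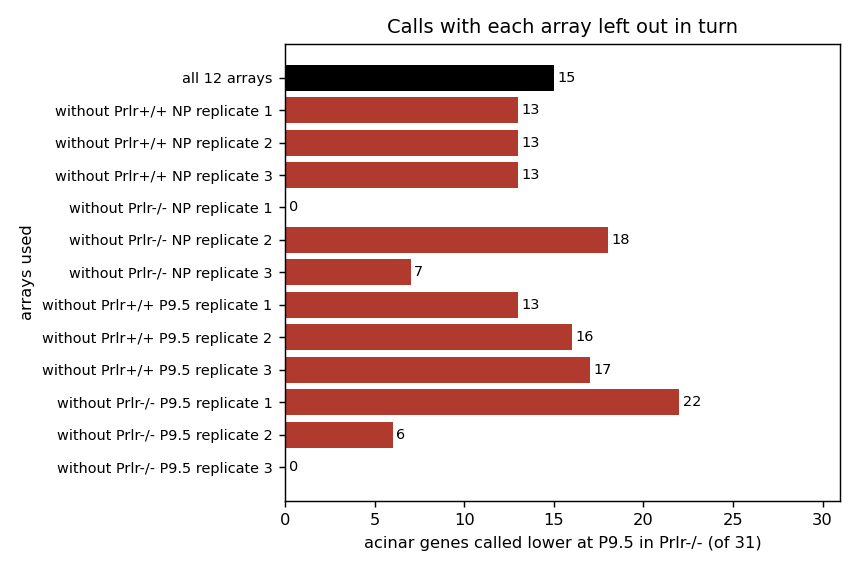
Number of the 31 acinar genes called lower at P9.5 than in NP in Prlr-/- islets (horizontal axis) with all 12 arrays (black) and with each array left out in turn (red). The count of 15 dropped to 0 when either replicate 1 of Prlr-/- NP or replicate 3 of Prlr-/- P9.5 was left out, and reached 22 without replicate 1 of Prlr-/- P9.5.

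The difference between the genotypes in their change with pregnancy was itself called for 0 of the 31 genes, with 0 probe sets called higher and 0.0788% lower over the whole array. The median of this difference was -0.73 over the 31 genes and -0.78 over the enzymes, beside 0.00 over all probe sets. An unadjusted p under 0.05 was reached by 0 of the 31. Pnliprp2 and Zg16 had the lowest values, -1.23 (SE 0.71, adjusted p = 0.61) and -1.23 (SE 0.74, adjusted p = 0.62). The enzyme median of the difference ranged from -1.28 to -0.37 with 1 array left out, was -1.11 without the low-Xist array and was -0.12 with array weights. The count of 15 in Prlr-/- and of 0 in Prlr+/+ therefore does not show that the genotypes differed.

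Bhlha15 stood apart from the enzymes. Its signal was 7.0, 7.3 and 7.5 in Prlr+/+ NP, 7.2, 7.0 and 7.3 in Prlr-/- NP, 8.3, 8.1 and 7.7 in Prlr+/+ P9.5 and 8.2, 7.8 and 8.3 in Prlr-/- P9.5. All pregnant arrays were above all non-pregnant arrays, which did not hold for any of the enzymes in either direction. Within a genotype this state was shown by 15% of all probe sets in Prlr+/+ and 19.4% in Prlr-/-. Its share over both genotypes together was not counted. In Prlr-/- it rose by 0.93 on the log2 scale, 1.91-fold (SE 0.18, adjusted p = 0.00312), and the difference between the genotypes in this change was 0.17 (SE 0.26, adjusted p = 0.87). Between genotypes of the same stage Bhlha15 differed by -0.10 in NP (SE 0.18, adjusted p = 0.87) and 0.07 at P9.5 (SE 0.18, adjusted p = 0.98). Prlr-/- NP replicate 1, the array with the highest enzyme signal, had a Bhlha15 signal of 7.2, and Prlr-/- P9.5 replicate 3, with the lowest enzyme signal, had 8.3. The rise in Prlr-/- was called without either of these arrays, at 0.95 and 0.83, and without both, at 0.85 (adjusted p = 0.0392). With the enzyme median as a covariate it was 0.72 in Prlr+/+ (adjusted p = 0.0442) and 0.84 in Prlr-/- (adjusted p = 0.0882). In Prlr+/+ the call was lost without P9.5 replicate 1 (0.63, adjusted p = 0.0544) and kept without P9.5 replicate 2, the array with low Xist (0.73, adjusted p = 0.0451).

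Tmed6 was 6.5, 6.3 and 6.0 in Prlr+/+ NP, 6.7, 6.1 and 6.6 in Prlr-/- NP, 7.1, 6.7 and 6.9 in Prlr+/+ P9.5 and 6.9, 6.9 and 6.8 in Prlr-/- P9.5. The groups did not overlap with pregnancy in either genotype, as for 15% of all probe sets going up in Prlr+/+ and 19.4% in Prlr-/-. The value in Prlr-/- was 0.40 (SE 0.17, adjusted p = 0.0915) and was not called. The difference in this change between the genotypes was -0.23 (SE 0.24, adjusted p = 0.80). In Prlr+/+ the call was lost without NP replicate 2 (0.65, adjusted p = 0.0543), NP replicate 3 (0.50, adjusted p = 0.0811) or P9.5 replicate 1 (0.53, adjusted p = 0.0844). It was kept without the low-Xist array, at 0.73 (adjusted p = 0.0277), and with the enzyme median as a covariate, at 0.74 (adjusted p = 0.0238).

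The enzyme median as a covariate also brought 3 further genes past the test in Prlr+/+, giving 5 genes higher at P9.5. These were Try4 (0.93), Cuzd1 (0.68) and Zg16 (0.61), each of which was not called without the covariate. Over all probe sets 4.13% were called higher in that fit.

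**Figure D4:**
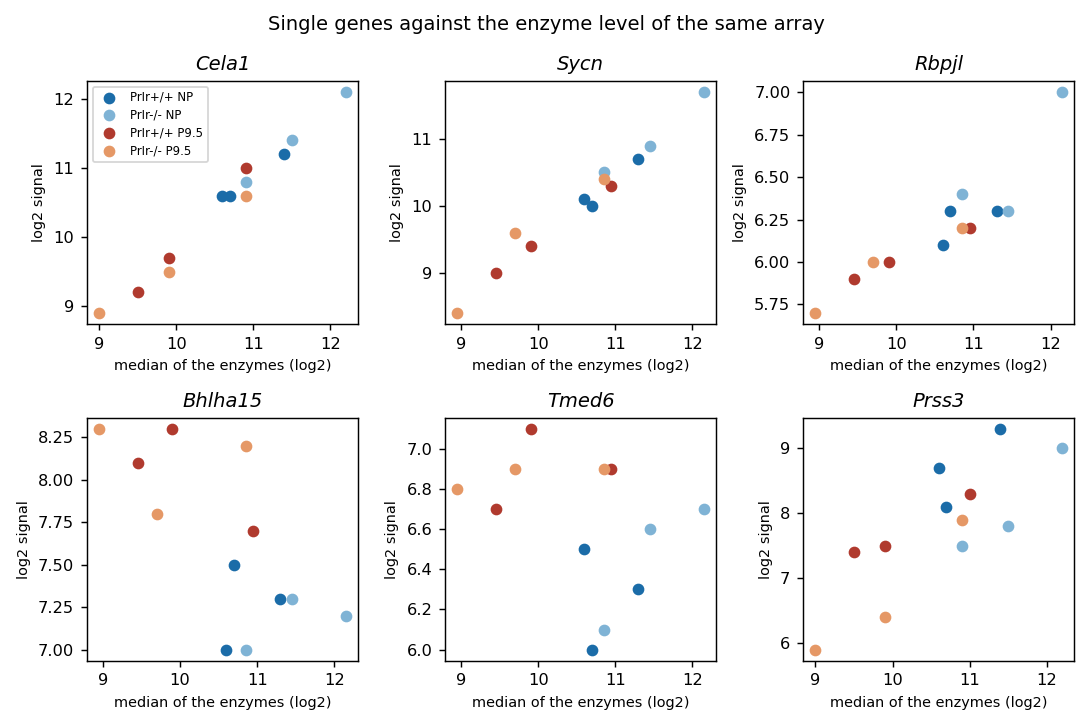
Log2 signal of 6 single genes (vertical axis) against the median log2 signal of the enzymes on the same array (horizontal axis, the gene itself left out), 1 point per array, coloured by group. Cela1 and Sycn run along a line through all 4 groups, and Rbpjl rises more shallowly. In each genotype the Bhlha15 and Tmed6 points of the pregnant group lie above the non-pregnant ones. Only Prlr+/+ P9.5 replicate 3 and Prlr-/- P9.5 replicate 1, at enzyme medians of 10.95 and 10.85, reach the non-pregnant range. The other pregnant points lie below it, where no non-pregnant point has the same enzyme level.

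The other transcription factors followed the enzymes weakly or were low throughout. Rbpjl, the partner of Ptf1a in the mature PTF1 complex, was 6.1, 6.3 and 6.3 in Prlr+/+ NP, 7.0, 6.4 and 6.3 in Prlr-/- NP, 6.0, 5.9 and 6.2 in Prlr+/+ P9.5 and 6.2, 6.0 and 5.7 in Prlr-/- P9.5. Its highest and lowest arrays were the same as those of the enzymes, over a range of 1.3 in place of 3.2 for Cela1. Ptf1a itself stayed between 4.8 and 5.4, under the median of 5.7 to 5.9 that an array had over all its probe sets, and its values with pregnancy were -0.17 and -0.23 in Prlr+/+ and Prlr-/-. Nr5a2 ranged from 4.9 to 5.7, with -0.23 and -0.37 (adjusted p = 0.28 and 0.0742). Gata4 ranged from 5.9 to 6.5, and in Prlr-/- its value of -0.43 had an adjusted p of 0.0105 but lay under the fold change of 1.5 required for a call. Of 14 genes listed as partners of PTF1 and gut factors, 1 rose with pregnancy in each genotype and 0 fell. Over all probe sets 5.73% rose in Prlr+/+ and 7.44% in Prlr-/-. Without the low-Xist array the gene called was Id2, at 0.88 in Prlr+/+ (adjusted p = 0.0121) and 0.93 in Prlr-/- (adjusted p = 0.00239).

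Aqp12 was 6.0, 6.2 and 6.2 in Prlr+/+ NP, 6.8, 6.1 and 6.2 in Prlr-/- NP, 5.8, 5.6 and 6.2 in Prlr+/+ P9.5 and 6.0, 5.9 and 5.3 in Prlr-/- P9.5. Its extremes fell on the same arrays as those of the enzymes. Erp27, a protein disulfide isomerase relative of the endoplasmic reticulum, ranged from 5.5 to 6.5 and was not called, at -0.07 in Prlr+/+ and -0.40 in Prlr-/- with pregnancy.

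Genes known to depend on Bhlha15 in secretory cells were followed as well. Of Rab3d and Rab26, GTPases of secretory granules, Gjb1, a gap junction protein, Atp2c2, a calcium pump of the secretory pathway, and Copz2, a coatomer subunit, 0 of 5 were called in either genotype, where 5.73% of all probe sets rose and 4.21% fell in Prlr+/+ and 7.44% rose and 7.09% fell in Prlr-/-. At an unadjusted p under 0.05, 3 of the 5 were lower in Prlr-/-, as were 8798 of all 35511 probe sets. In Prlr+/+ 0 of the 5 were lower at that p, beside 6700 of all probe sets. The difference between the genotypes was called for 0 of the 5. Their median log2 fold change with pregnancy was -0.03 in Prlr+/+ and -0.37 in Prlr-/-. Gjb1 had -0.13 and -0.47 (adjusted p = 0.60 and 0.0469) and Atp2c2 -0.20 and -0.40, while Rab3d had 0.07 and 0.27.

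Folding genes of the endoplasmic reticulum, which serve endocrine as well as acinar cells, moved in the same direction as Bhlha15 and Tmed6. With pregnancy 5 of 15 rose in Prlr+/+ and 8 of 15 in Prlr-/-, and 0 fell in either. Over all probe sets 5.73% rose and 4.21% fell in Prlr+/+, and 7.44% rose and 7.09% fell in Prlr-/-. Hspa5, the chaperone BiP, rose by 0.77 and 0.97 (adjusted p = 0.00147 and 0.000238), Dnajb9, its co-chaperone, by 0.70 and 1.20 (adjusted p = 0.0227 and 0.000946), and Pdia4, a disulfide isomerase, by 0.70 and 0.83. Sdf2l1 rose by 0.73 and 0.83, Manf by 0.63 in both genotypes, and Dnajb11, Creld2 and Dnajc3 rose past the test in Prlr-/- alone, at 0.87, 0.70 and 0.70, a difference between genotypes that was called for 0 members of the list. The median over the 15 was 0.50 in Prlr+/+ and 0.63 in Prlr-/-. Without the low-Xist array 4 of the 15 rose in Prlr+/+, with Dnajb9 no longer called (0.62, adjusted p = 0.085).

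Of 16 further genes of the exocrine pancreas, 4 rose and 0 fell in Prlr+/+, where 5.73% of all probe sets rose and 4.21% fell. In Prlr-/- 2 of the 16 rose and 3 fell, where 7.44% rose and 7.09% fell. The difference between the genotypes was called for 0 of the 16. The 3 that fell in Prlr-/- were Pla2g1b, the pancreatic phospholipase (-1.5, adjusted p = 0.0195), Dmbt1, a secreted mucosal protein (-1.43, adjusted p = 0.0396), and Tff2, a trefoil peptide (-1.27, adjusted p = 0.0494). Their Prlr+/+ values were -0.63, -0.23 and -0.70, not called. Those that rose in Prlr+/+ were Nupr1, a stress-induced nuclear protein (1.0, adjusted p = 0.0135), Chrm3, the muscarinic receptor of acinar and beta cells (0.90, adjusted p = 0.000331), Gatm, an enzyme of creatine synthesis (0.77, adjusted p = 0.0288), and Mia2, a protein of export from the endoplasmic reticulum (0.63, adjusted p = 0.00358). Mia2 also rose in Prlr-/- (0.77, adjusted p = 0.000784), as did Slc38a5, an amino acid transporter (0.77, adjusted p = 0.0206). Without the low-Xist array 3 of the 16 rose in Prlr+/+, and Mia2 (0.58, adjusted p = 0.0178) lay just under the fold change required.

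Markers of other cells were compared with the enzyme signal of the same arrays. With pregnancy 5.73% of all probe sets rose and 4.21% fell in Prlr+/+, and 7.44% rose and 7.09% fell in Prlr-/-. The median of 5 duct markers was between 5.8 and 6.0 in Prlr+/+ NP, 5.9 and 6.4 in Prlr-/- NP, 5.3 and 5.6 in Prlr+/+ P9.5 and 5.2 and 5.6 in Prlr-/- P9.5, so that it too was lower in the pregnant groups. Of these, Krt7 fell in Prlr+/+ (-0.80, adjusted p = 0.00335) and Muc1 in Prlr-/- (-0.90, adjusted p = 0.00104). Krt7 without the low-Xist array was at -0.90 (adjusted p = 0.00618). The median of 9 beta cell markers, equal on every array to the signal of the insulin gene Ins2, stayed between 10.6 and 11.0. Of these, Mafa and Nkx6-1, factors of mature beta cells, fell in Prlr+/+ (-0.67 and -0.73, adjusted p = 0.00938 and 0.00369), and Ucn3, the peptide urocortin 3, rose in both genotypes (0.60 in each, adjusted p = 0.0237 and 0.0169). Ucn3 was not called in Prlr+/+ without the low-Xist array (0.57, adjusted p = 0.0762).

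The 7 endothelial markers had a median log2 fold change with pregnancy of -0.20 in Prlr+/+ and 0.23 in Prlr-/-. Plvap, a protein of endothelial diaphragms, fell in Prlr+/+ (-0.67, adjusted p = 0.00296) and Tek, the angiopoietin receptor, rose in Prlr-/- (0.63, adjusted p = 0.00733). Tie1, another endothelial receptor, also fell in Prlr+/+ when the low-Xist array was left out (-0.67, adjusted p = 0.00349). The difference between the genotypes was above 0 for 7 of 7 and was called for 0, with a median of 0.43 and 4 at an unadjusted p under 0.05. Of all 35511 probe sets it was above 0 for 16050, and for 1513 at an unadjusted p under 0.05. The 7 genes of the regenerating family, secreted proteins of acinar and islet cells, had a median of 0.37 in Prlr+/+ and -0.73 in Prlr-/-. In either genotype 0 of them were called. Over all probe sets 5.73% rose and 4.21% fell in Prlr+/+, and 7.44% rose and 7.09% fell in Prlr-/-. In Prlr-/- 2 of the 7 were lower at an unadjusted p under 0.05, as were 8798 of all 35511 probe sets. The Prlr+/+ median was 0.78 without the low-Xist array, and 1 of the 7 then rose, Reg3b (2.27, adjusted p = 0.0448). The difference between the genotypes had a median of -1.5 and was called for 0, where 0.0788% of all probe sets were called lower. The median of the stromal markers ranged from 6.65 to 7.90 over all arrays, and its groups overlapped, as did those of the adipocyte markers. The median of the other endocrine markers was 12.7 to 12.8 in Prlr-/- NP and 13.2 to 13.3 in Prlr-/- P9.5. In Prlr+/+ it was 12.5 to 12.8 in NP and 12.7 to 13.1 at P9.5. The immune marker median was 5.25 to 5.65 in Prlr+/+ NP and 5.7 to 5.75 in Prlr+/+ P9.5. In Prlr-/- it was 5.3 to 5.45 in NP and 5.6 to 5.85 at P9.5. The part of other cells in the acinar values was not tested.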

How the data were processed

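RNA of mouse islets was measured in 12 samples. Per the methods of the study, the authors preprocessed the array files by robust multichip analysis (RMA) in R and deposited log2 signal values, 1 per probe set and sample; the genome build was not given in the sources used here. RMA with quantile normalization sets the signals of the arrays on a common distribution, so that only relative levels can be compared. No further normalization was applied.

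Groups were taken from the sample labels. The members and gene lists were chosen with earlier results of these data known. All members with a probe set of their own are named. From the other lists those past the test are named, and from some lists also up to 4 with the largest change. No gene is named from the stromal, immune, adipocyte and other endocrine lists, where 0 were called with pregnancy in either genotype. Of 35511 probe sets 21789 carried 1 gene symbol, and 21698 of these were matched to a current symbol by Entrez ID. One linear model over the 4 groups was fitted to all probe sets with limma 3.58.1 in R 4.3.3, with Benjamini-Hochberg adjustment over all of them. An exact permutation test of 3 against 3 arrays cannot go below p = 0.10, so none was used. The script was tested on simulated data: of 200 probe sets given a known change in the Prlr-/- pregnancy comparison, the fit recovered 45%, 76% and 97% of true log2 changes of 0.7, 1 and 2. These were drawn at random from the whole array, with independent noise. The pooled SD within groups had a median of 0.16 over all probe sets, 0.65 over the enzymes and 0.76 over the granule proteins. The recovery rates therefore do not apply to the enzymes and granule proteins.

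Results were recomputed with each array left out, with array weights, with the replicate number as a block, with the 2 groups of a comparison alone, without the dimmest 40% of probe sets, after quantile normalization or median centring, with a robust prior that follows intensity, and with the enzyme median as a covariate (for an enzyme, of the others). The joint omission of both end arrays and the omission of the array with low Xist from the other gene lists were chosen after seeing the data. The labels do not say that replicate numbers pair the samples. Deviations of same-numbered arrays correlated between -0.11 and 0.23, with 7 of 18 pairs over 0.1. Different-numbered pairs were not set beside them, so a pairing was not excluded.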

Additional observations from a re-analysis of the deposited data

How the results depend on the processing

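Counts of acinar genes called in the genotype comparisons and in the difference of the pregnancy changes were 0 under every alternative. The number that fell with pregnancy in Prlr-/- (15) was 6 when only the 2 groups were fitted, and 0 with array weights, with the enzyme median as a covariate and without both end arrays. With 1 array left out it ranged from 0 (replicate 1 of Prlr-/- NP or replicate 3 of Prlr-/- P9.5 left out) to 22 (replicate 1 of Prlr-/- P9.5 left out). The replicate number as a block gave 13, in place of 15, and changed no other count of calls. The number that rose in Prlr+/+ (2) ranged from 0 (without Prlr+/+ P9.5 replicate 1) to 2, and was 5 with the covariate, while in Prlr-/- it was 0 in place of 1 with the covariate. The median log2 fold change of the enzymes in Prlr-/- was 0.030 with the covariate, -0.60 without both end arrays and between -1.866 and -0.925 with 1 array left out, and that of the difference between genotypes was -0.010 with the covariate. Both end arrays were picked by their enzyme level, so a smaller fall without them follows from the choice, and for the enzymes the covariate takes their shared change with it by construction.

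With the covariate, values in Prlr-/- that had been below 0 turned above it without a call: Cela2a 0.065, Try5 0.017, Cpa1 0.044, Clps 0.27, Sycn 0.008, Aqp12 0.010, Ctrl 0.34, Prss3 0.17, Cpb1 0.33, Rnase1 0.47, Zg16 0.30, Try4 0.64, Amy1 0.25, Gp2 0.47 and Cuzd1 0.48. The groups differ in this covariate, so the fit takes part of any difference between groups with it. With 1 array left out, the change of Try4 in Prlr+/+ (0.30) ranged from -0.033 to 0.683, and the genotype difference of Bhlha15 from -0.233 to 0.017 in NP (-0.10) and from -0.10 to 0.217 at P9.5 (0.067), where it was -0.033 without both end arrays. The mean of all own probe sets per gene changed nothing, as each member has 1.

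With 3 arrays a group the number of arrays limits the precision, and values in steps of 0.1 limit the resolution of the dim factors.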
